A study of Homo sapiens with 6 samples.

Results

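Most of the transcripts described here encode proteins of the spliceosomal small nuclear ribonucleoproteins (snRNPs). They were chosen by symbol, as the genes of the count table whose names start with SNRP, SF3A, SF3B, PRPF or LSM. This gave 48 of the 19330 genes listed: 12 SNRP genes, 9 SF3A and SF3B genes, 13 PRPF genes and 14 LSM genes. They are called snRNP genes below for their prefix, although LSM12, LSM14A, LSM14B, LSMEM1 and LSMEM2 are not proteins of the spliceosomal snRNPs, and LSM1, LSM10 and LSM11 act in other Lsm or Sm-like rings. Some PRPF genes, among them PRPF4B, PRPF19, PRPF38A and PRPF38B, encode spliceosome proteins outside the tri-snRNP described below and are likewise named for their prefix. All were measured by RNA-Seq of K562, a long-established human line from a chronic myelogenous leukemia with erythroid features, in 3 libraries with control sgRNAs (sgCtrl) and 3 with sgRNAs against N6AMT1 (sgN6AMT1). The cells were transduced with pLentiCRISPRv2, which carries Cas9 together with the sgRNA, selected with puromycin and collected 10 d after infection, so that both conditions had received Cas9 and a guide. Each library came from its own lentiviral transduction and is a pool of edited cells, not a clone. The labels name OR11A1 and OR2M49 as control targets, the study's methods name EGFP or OR11A1 and OR2M4, and neither says which guide a given library received. The labels list polyA RNA, whereas both the labels' extraction text and the methods describe stranded libraries from rRNA-depleted total RNA of cleared lysates.

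Pre-mRNA splicing is carried out by the U1, U2, U4, U5 and U6 snRNPs, each a small nuclear RNA with its proteins. Proteins of the Sm family form a ring around U1, U2, U4 and U5, the related Lsm proteins form a ring on U6, and a further Lsm ring acts in the cytoplasm in the decay of deadenylated mRNAs. The SF3A and SF3B complexes belong to the U2 snRNP and hold the branch site, and many PRPF proteins, named after yeast mutants in pre-mRNA processing, belong to the U4/U6.U5 tri-snRNP or join the spliceosome while it is activated. Most of these genes are expressed in all nucleated cells.

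The libraries held 742470, 866894 and 866155 counts in sgCtrl replicates 1 to 3, and 959319, 5526904 and 4062363 counts in sgN6AMT1 replicates 1 to 3. The snRNP genes together received between 5641 and 38716 counts per library, and their median count among the 43 genes tested was 100 in the shallowest library. N6AMT1, the targeted gene, had 6, 5 and 9 counts in the controls and 0, 18 and 16 counts in sgN6AMT1, which scaled to total counts is 8.08 ± 2.31 cpm against 2.40 ± 2.10 cpm (both SD, n = 3). The conditions did not overlap, although so few counts kept N6AMT1 out of the edgeR fit, and the fit without a filter on low counts gave a log2 change of -1.36 ± 0.58 (SE, adjusted p = 0.137). As a check of the cell type, the embryonic globin genes were abundant, HBE1 with 944 to 2470.3 and HBZ with 500.3 to 834 TMM-normalized cpm over the 6 libraries, and the erythroid factor GATA1 had 71.9 to 139.8. Of 8 erythroleukemia markers, 3 lay higher and 5 lower in the fit used for all genes, and HBE1 alone passed the threshold, with a log2 change of 0.89 ± 0.17 (SE, adjusted p = 0.00414). TAL1 had a log2 change of 1.02 ± 0.32 (SE, adjusted p = 0.0503), just short of the threshold, and HBZ was lower without overlap, at a log2 change of -0.39 ± 0.15 (SE, adjusted p = 0.116). Whether these differences bear on the snRNP genes was not tested. The HBE1 call was lost without sgCtrl replicate 2 (adjusted p = 0.0561). Of the lymphoid markers, no count fell on MS4A1 (0 in every library, a limit of 4.04 cpm of total counts or 3 counts in the shallowest) and CD3E reached 0.514, whereas CD3D lay between 11.8 and 19.8 in both conditions.

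Of the 48 genes, 43 had enough counts for edgeR's filter and were tested, and 31 of these (72.1%) had a negative log2 fold change in sgN6AMT1 against 12 with a positive one, where 49.2% of all genes tested were negative. Without sgN6AMT1 replicate 3 the split was 24 negative to 19 positive, and for the LSM genes it went from 10 negative and 1 positive to 4 and 7. Genes were counted as differentially expressed at an adjusted p under 0.05 over the whole table, a threshold passed by 9.85% of the 8324 genes tested, 5.09% higher and 4.76% lower. By this measure 9 genes with these prefixes changed, 20.9% of those tested. Among them, LSM12 is not a protein of the spliceosomal snRNPs, and PRPF4B, PRPF38A and PRPF38B are not of the tri-snRNP. SNRPA1, PRPF38B, LSM6, LSM12, PRPF4B, SNRPD1 and PRPF38A fell, which is 16.3% of the genes tested, and SNRPB and LSM7 rose, which is 4.65%. P-values here measure the spread between separate transductions. An unadjusted p under 0.05 was found for 16 snRNP genes, 3 higher and 13 lower, where 26.2% of all genes had one (13.2% higher and 13.1% lower). The 3 values of each condition did not overlap for 14 genes that were lower in sgN6AMT1 (32.6%, against 14.1% of all genes tested) and for 6 that were higher (14.0%, against 15.1%), where 29.2% of all genes were without overlap in either direction.

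**Figure D1:**
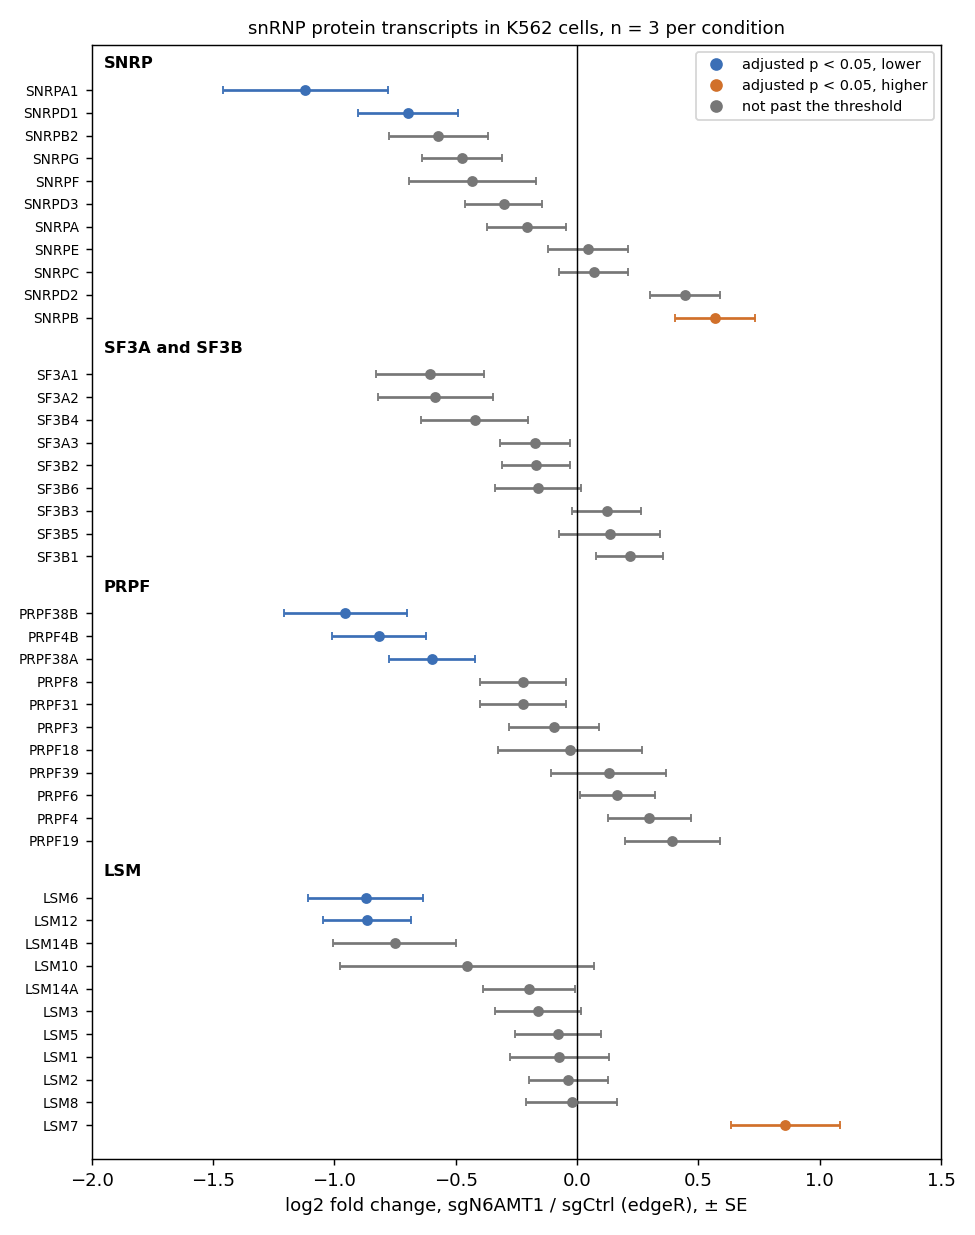
Log2 fold changes (x axis, sgN6AMT1 over sgCtrl, edgeR, bars ± standard error, n = 3 libraries per condition) of the snRNP genes tested (y axis; 1 gene not reported here is left out), grouped by symbol prefix. Blue and orange points passed an adjusted p of 0.05 in the lower (7 genes) and higher (2 genes) direction, and grey points did not; most points lie left of 0.

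The median log2 fold change of the 43 genes was -0.17, beside 0.01 for all genes tested. It was -0.30 for the SNRP genes, -0.17 for SF3A and SF3B, -0.16 for PRPF and -0.16 for LSM. Single libraries moved these medians: LSM was 0.01 without sgN6AMT1 replicate 3, -0.27 without sgN6AMT1 replicate 2 and -0.07 without sgCtrl replicate 2, SF3A and SF3B were -0.07 without sgCtrl replicate 3, and PRPF was -0.08 without sgCtrl replicate 2. The LSM genes had median log2 levels of 0.01 and 0.03 in sgN6AMT1 replicates 1 and 2 and of -0.51 in replicate 3, relative to sgCtrl. Set against the sgCtrl mean of each gene, the 43 genes had a median log2 level of -0.12, -0.11 and -0.29 in the sgN6AMT1 replicates 1 to 3, and of 0.02 in each sgCtrl library, so that each of the 3 sgN6AMT1 libraries lay below the controls and replicate 3 lay lowest. That library also stood apart over all genes. On the first principal component (48.7% of the variance) it lay at 35.5, against 14.6 and 17.8 for sgN6AMT1 replicates 1 and 2. The sgCtrl replicates 1 and 2 lay at -27.1 and -28.3, and sgCtrl replicate 3 lay apart from them at -12.4, toward sgN6AMT1. Counts of sgN6AMT1 replicate 1 differed from those of replicate 3 by a chi-square of 10.7 per degree of freedom, and from those of the deeper replicate 2 by 4.46. Among the controls this was 3.94 and 3.28 for sgCtrl replicate 3 against replicates 1 and 2, and 2.10 between replicates 1 and 2. The part of these differences between libraries in the lower snRNP levels was not tested. Their summed level was 7573, 7647 and 7705 TMM-normalized cpm in sgCtrl and 7327, 7056 and 6883 in sgN6AMT1, a mean of 7642 ± 66.1 and 7089 ± 224 (SD, n = 3 each) with no overlap between the conditions. Within each prefix family taken alone, the summed levels of the conditions overlapped. The sgCtrl and sgN6AMT1 sums were 2291 ± 74.0 and 2173 ± 54.2 for SNRP, and 2208 ± 39.2 and 2121 ± 43.6 for SF3A and SF3B. They were 2098 ± 83.4 and 1844 ± 148 for PRPF, and 1044 ± 61.5 and 951 ± 91.0 for LSM (SD, n = 3 each). In sgN6AMT1, 21 of the 43 genes lay below the sgCtrl mean in all 3 libraries, as did 2623 of the 8324 genes tested, and 6 lay above it in all 3, as did 2586 of all genes. In bulk RNA a lower level in every cell and a change in the share of cells that express a gene cannot be told apart.

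The count of 9 was 2 without sgCtrl replicate 1, 1 without sgCtrl replicate 2 and 2 without sgN6AMT1 replicate 3, where 3.50%, 2.54% and 6.37% of all genes passed, so that the share of snRNP genes called (4.55%, 2.33% and 4.65%) was near or below that of all genes in these 3 fits. It was 9 without sgCtrl replicate 3, and 10 and 7 without sgN6AMT1 replicates 1 and 2, where 8.72%, 11.2% and 5.85% passed. Of the 9 genes, LSM12 alone passed in each of the 15 alternative fits, and PRPF4B passed in 14, failing without sgCtrl replicate 2 (adjusted p = 0.0916). All 9 genes kept their direction in the 15 fits.

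The Sm ring takes up 1 copy each of the products of SNRPB, SNRPD1, SNRPD2, SNRPD3, SNRPE, SNRPF and SNRPG. Its transcripts did not move together. SNRPB (SmB/B′, chromosome 20 from 2461634 to 2470853 in GRCh38) had 319.8, 268 and 338 TMM-normalized cpm in the sgCtrl libraries, listed from replicate 1 to 3, against 383, 416 and 569 in the sgN6AMT1 libraries. Each sgN6AMT1 library exceeded each control, with replicate 3 the highest, and SNRPB rose by a log2 change of 0.57 ± 0.17 (SE, adjusted p = 0.037). SNRPD1 (SmD1, chromosome 18 from 21612314 to 21633524) had 304, 340.3 and 245 in sgCtrl and 236, 204 and 117 in sgN6AMT1. It lay below every control in all 3 libraries, by a small margin in replicate 1, and fell with a log2 change of -0.70 ± 0.21 (SE, adjusted p = 0.0403). Both calls were lost without sgCtrl replicate 1, sgCtrl replicate 2, sgN6AMT1 replicate 2 or sgN6AMT1 replicate 3, at adjusted p values of 0.0521 to 0.211 for SNRPB and 0.0545 to 0.202 for SNRPD1. In these fits the log2 fold change ran from 0.38 to 0.64 for SNRPB and from -0.78 to -0.45 for SNRPD1. The smallest change of each gene was without sgN6AMT1 replicate 3, and the largest without sgN6AMT1 replicate 2. Thinning of the deep sgN6AMT1 replicates 2 and 3 also ended the call of SNRPB (log2 fold change 0.52, adjusted p = 0.0503).

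SNRPD2 (SmD2), which pairs with SmD1 before the ring closes, had 249, 215 and 251 TMM-normalized cpm in sgCtrl and 301, 325 and 342 in sgN6AMT1. Its conditions did not overlap either, and its log2 change of 0.44 ± 0.14 (SE, adjusted p = 0.0573) missed the threshold. SNRPD2 was called with a filter of 10 counts in every library and with the replicate number as a block. SNRPG had 319.8, 326 and 414 in sgCtrl and 287, 276 and 204 in sgN6AMT1, below every control, at a log2 change of -0.48 ± 0.16 (SE, adjusted p = 0.0716). For SNRPG, GENCODE v44 lists 20 pseudogenes under its name, and for SNRPC and SNRPE 18 and 10, so that their counts depend on how reads shared with these copies were treated, which is not given in the sources used here. SNRPB shares 4.97% of its exon bases with a further gene model on the same strand, and none of the 9 called genes shares more. SNRPD3, SNRPE and SNRPF did not pass, with log2 fold changes of -0.30, 0.04 and -0.43.

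Counts of a pair of genes can also be set against each other within a library, although a ratio does not remove trends with GC content and length that differ between libraries. The canonical transcripts of SNRPB and SNRPD1 have 58.2% and 40.2% GC, and SNRPB was no longer called after correction for both trends (log2 fold change 0.34, adjusted p = 0.108). The ratio of SNRPB to SNRPD1 counts was 1.05, 0.786 and 1.38 in sgCtrl and 1.62, 2.04 and 4.84 in sgN6AMT1. That of SNRPD2 to SNRPD1 was 0.819, 0.631 and 1.02 in sgCtrl and 1.28, 1.60 and 2.91 in sgN6AMT1. Both ratios were above all controls in each sgN6AMT1 library, and both pairs were picked after their values were seen, so that no test was made. SNRPN, an SmB-like paralog from the imprinted region of chromosome 15 that is known from neurons, had 0 counts in the sgCtrl libraries and in sgN6AMT1 replicate 1, and 4 and 3 counts in sgN6AMT1 replicates 2 and 3. The sgCtrl zeros allow up to 3.46 to 4.04 cpm, above the 0.724 and 0.738 cpm of the deep libraries, so that no difference was detectable at this depth.

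**Figure D2:**
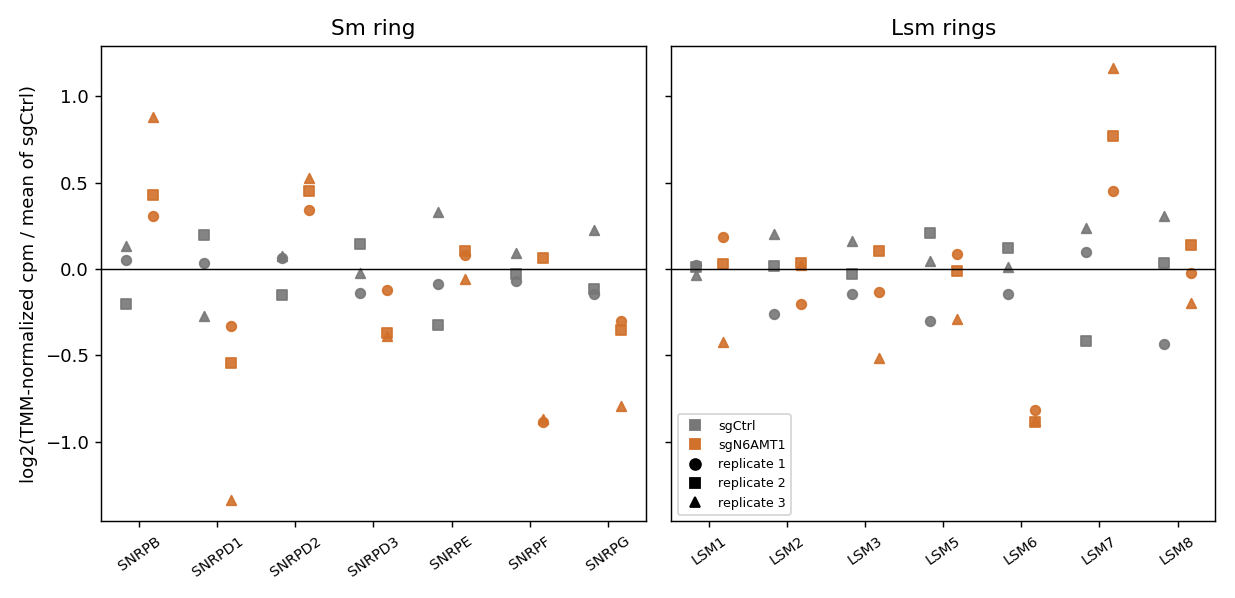
Log2 ratio of each library's TMM-normalized cpm to the mean of sgCtrl (y axis) for the 7 Sm ring genes and for 7 Lsm ring genes (x axis), sgCtrl in grey and sgN6AMT1 in orange, with the symbol giving the replicate. SNRPB and LSM7 lie above and SNRPD1 and LSM6 below the controls in all 3 sgN6AMT1 libraries, while LSM1, LSM2, LSM5 and LSM8 are mixed with them.

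SNRPA and SNRPC encode the U1-A and U1-C proteins, and SNRPA1 and SNRPB2 the U2-A′ and U2-B″ proteins, which bind a stem-loop of U2 RNA as a pair. SNRPA1 (chromosome 15 from 101281510 to 101295282) had 161, 179 and 62.5 TMM-normalized cpm in sgCtrl and 76.9, 82.5 and 29.3 in sgN6AMT1. The conditions overlapped, because sgCtrl replicate 3 was below sgN6AMT1 replicates 1 and 2, and the lowest value was that of sgN6AMT1 replicate 3. The fit gave a log2 change of -1.12 ± 0.34 (SE, adjusted p = 0.0438), the lowest fold change of the SNRP genes. With single libraries left out the log2 fold change ran from -1.47 to -0.73. The call was lost without sgCtrl replicate 1 (adjusted p = 0.162), sgCtrl replicate 2 (0.253) or sgN6AMT1 replicate 3 (0.0659). DESeq2, scaling by total counts and a filter of 10 counts in every library did not call it (adjusted p = 0.306, 0.0509 and 0.0513).

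SNRPB2 had 84.7, 86.5 and 97.8 TMM-normalized cpm in sgCtrl and 72.7, 65.9 and 46.3 in sgN6AMT1, without overlap, at a log2 change of -0.57 ± 0.20 (SE, adjusted p = 0.0789). It was called without sgN6AMT1 replicate 1, and with the replicate number as a block and GC content and length corrected for. The U1 genes showed smaller differences that did not pass, with log2 fold changes of -0.21 for SNRPA and 0.07 for SNRPC.

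None of the 9 SF3A and SF3B genes passed the threshold in edgeR as fitted here, and 2 of them, SF3A1 and SF3A2, had an unadjusted p under 0.05 (22.2%, below the 26.2% of all genes). DESeq2 also called 0 of them. Other edgeR fits called 1 without a filter, 1 with the replicate number as a block, 2 once GC content and length were corrected for and 4 with both, where 8.66%, 14.4%, 11.3% and 16.9% of all genes passed. SF3A1, the largest SF3A subunit, had 173, 162 and 83.7 TMM-normalized cpm in sgCtrl and 101, 100.4 and 74.8 in sgN6AMT1. As for SNRPA1, sgCtrl replicate 3 lay among the sgN6AMT1 values, and the log2 change of -0.61 ± 0.22 (SE, adjusted p = 0.0881) passed when that library was left out (log2 fold change -0.88, adjusted p = 0.0152). SF3A2 and SF3A3 had log2 fold changes of -0.58 and -0.17.

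SF3B1, the large subunit at the branch site and a gene that is recurrently mutated in myelodysplastic syndromes, had 368, 406 and 424 TMM-normalized cpm in sgCtrl and 479, 448 and 467 in sgN6AMT1. The 3 sgN6AMT1 libraries lay above the controls by a narrow margin, at a log2 change of 0.22 ± 0.14 (SE, adjusted p = 0.339), the highest of the SF3 genes. It passed in 1 of the 15 alternatives, with the replicate number as a block and GC content and length corrected for (log2 fold change 0.34, adjusted p = 0.0235). The other SF3B subunits ran from -0.42 for SF3B4 to 0.13 for SF3B5. The summed level of the 6 SF3B genes was 1499.6, 1578 and 1609 in sgCtrl and 1609, 1567 and 1602 in sgN6AMT1, which overlap, whereas that of the 3 SF3A genes was 665, 640.3 and 632 against 557, 512 and 516, which do not.

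The PRPF genes fall into proteins of the tri-snRNP and others. None of the 5 tri-snRNP genes (PRPF3, PRPF4, PRPF6, PRPF8 and PRPF31) passed the threshold or had an unadjusted p under 0.05 (all genes 9.85% and 26.2%). The conditions did not overlap for PRPF31, which was lower (20%, all genes 14.1%), and for PRPF4 and PRPF6, which were higher (40%, all genes 15.1%). PRPF8, the U5 protein that scaffolds the catalytic center, had 493, 397 and 282 TMM-normalized cpm in sgCtrl and 320.3, 300.1 and 381 in sgN6AMT1. Its values overlapped, with sgCtrl replicate 3 the lowest, at a log2 change of -0.22 ± 0.18 (SE, adjusted p = 0.456). With single libraries left out this change ran from -0.41 to -0.03. PRPF31 and PRPF3, both of U4/U6, had log2 fold changes of -0.22 and -0.10, and PRPF4 and PRPF6 had 0.30 and 0.17. PRPF31 shares 589 of its 2673 exon bases with its antisense gene PRPF31-AS1, and whether strand was used in counting is not given in the sources used here.

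The 3 called PRPF genes were among the 7 tested outside the tri-snRNP (42.9%, all genes 9.85%). A difference from the tri-snRNP genes was not tested. PRPF38B (chromosome 1 from 108692310 to 108702928), a paralog of PRPF38A, had 73.9, 83.1 and 68.4 TMM-normalized cpm in sgCtrl and 48.5, 46.9 and 24.2 in sgN6AMT1. All sgN6AMT1 values were below all controls, replicate 3 being the lowest, at a log2 change of -0.95 ± 0.25 (SE, adjusted p = 0.0238). PRPF38A (chromosome 1 from 52404602 to 52420836), a protein of the spliceosome before its activation, had 149, 143 and 119 in sgCtrl against 83.2, 108 and 77.6 in sgN6AMT1. Its conditions did not overlap, and it fell with a log2 change of -0.60 ± 0.18 (SE, adjusted p = 0.0413). The ratio of PRPF38A to PRPF38B counts was 2.02, 1.72 and 1.74 in sgCtrl and 1.72, 2.30 and 3.21 in sgN6AMT1, which overlap. Without sgCtrl replicate 1, sgCtrl replicate 2 or sgN6AMT1 replicate 3 neither paralog was called, at adjusted p values of 0.0561 to 0.121 for PRPF38B and 0.109 to 0.153 for PRPF38A, which was also lost without sgN6AMT1 replicate 1 (0.0705) and after thinning of sgN6AMT1 replicates 2 and 3 (0.0612).

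PRPF4B (chromosome 6 from 4021267 to 4064983), a kinase that phosphorylates tri-snRNP proteins, had 175, 207 and 187 TMM-normalized cpm in sgCtrl and 138, 116 and 76.1 in sgN6AMT1. The conditions were separate, and it fell with a log2 change of -0.82 ± 0.19 (SE, adjusted p = 0.0136), a call lost only without sgCtrl replicate 2 (adjusted p = 0.0916). PRPF19, the ubiquitin ligase of the complex that bears its name, had the highest fold change among the PRPF genes that passed the filter, with 191, 185 and 199 in sgCtrl and 274, 166 and 318 in sgN6AMT1. Its sgN6AMT1 libraries disagreed, replicate 2 being below all controls. Its log2 change of 0.39 ± 0.20 (SE, adjusted p = 0.213) passed only without that replicate (log2 fold change 0.64, adjusted p = 0.0388). With other single libraries left out, the log2 fold change of PRPF19 went as low as 0.15.

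PRPF40B, a U1-associated protein, had 1, 2 and 3 counts in the controls and 7, 21 and 12 in sgN6AMT1, too few for the filter, and the fit without a filter gave a log2 change of 0.74 ± 0.77 (SE, adjusted p = 0.661). PRPF18 and PRPF39 had log2 fold changes of -0.03 and 0.13 and did not pass.

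Among the Lsm proteins, LSM2 to LSM7 are shared by both rings, LSM8 completes the nuclear ring on U6 and LSM1 the cytoplasmic ring of mRNA decay. LSM4 was not analysed here. The 2 genes that tell the rings apart did not pass the threshold. LSM1 had 68.5, 68.1 and 66 TMM-normalized cpm in sgCtrl and 76.9, 69 and 50.4 in sgN6AMT1, at a log2 change of -0.07 ± 0.21 (SE, adjusted p = 0.865). LSM8 had 90, 125 and 151 in sgCtrl against 120.1, 134 and 106 in sgN6AMT1, at a log2 change of -0.02 ± 0.19 (SE, adjusted p = 0.956). Both overlapped between the conditions, and the ratio of LSM8 to LSM1 counts averaged 1.81 ± 0.49 over the controls against 1.87 ± 0.28 in sgN6AMT1 (both SD, n = 3).

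Of the shared subunits, one fell and another rose. LSM6 (chromosome 4 from 146175703 to 146200000) had 40.3, 48.5 and 44.8 TMM-normalized cpm in sgCtrl and 25.3, 24.1 and 24.2 in sgN6AMT1, values that were close to each other within each condition and far apart between them. It had a log2 change of -0.87 ± 0.24 (SE, adjusted p = 0.0275), from 30, 42 and 38 counts in sgCtrl. Its log2 fold change stayed between -0.94 and -0.81 with each library left out, but 5 of these 6 fits did not pass (adjusted p between 0.0538 without sgCtrl replicate 3 and 0.122 without sgCtrl replicate 2; without sgCtrl replicate 1, sgN6AMT1 replicate 2 or sgN6AMT1 replicate 3 it was 0.0569, 0.0922 and 0.0550).

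LSM7 (chromosome 19 from 2321520 to 2328611) had 57.8, 40.4 and 63.7 TMM-normalized cpm in sgCtrl and 73.8, 92.2 and 121 in sgN6AMT1. It was higher in each sgN6AMT1 library than in any control, most of all in replicate 3, with a log2 change of 0.86 ± 0.22 (SE, adjusted p = 0.0226). The call was lost without sgCtrl replicate 1 (adjusted p = 0.0647), sgCtrl replicate 2 (0.146) or sgN6AMT1 replicate 3 (0.0602). The ratio of LSM7 to LSM6 counts, picked after the values were seen, was 1.43, 0.833 and 1.42 in sgCtrl and 2.92, 3.83 and 5.01 in sgN6AMT1. LSM2, LSM3 and LSM5 lay between -0.16 and -0.04 on the log2 scale and did not pass.

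Outside these rings, LSM12 (chromosome 17 from 44034328 to 44067619), a larger protein with an Lsm domain, had 112, 95.8 and 99 TMM-normalized cpm in sgCtrl and 61.1, 58.2 and 50.1 in sgN6AMT1. The highest sgN6AMT1 value was well below the lowest control, and the log2 change of -0.87 ± 0.18 (SE, adjusted p = 0.00748) was the one with the smallest adjusted p of the 43 genes. LSM14A and LSM14B are scaffold proteins of P-bodies. LSM14B had 47, 34.6 and 41.3 in sgCtrl and 20, 27.4 and 23.1 in sgN6AMT1, without overlap, at a log2 change of -0.75 ± 0.25 (SE, adjusted p = 0.0655), whereas LSM14A had 177, 185 and 146 in sgCtrl against 180.2, 162 and 106 in sgN6AMT1, with overlap, at a log2 change of -0.20 ± 0.19 (SE, adjusted p = 0.549).

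LSM10 and LSM11 belong to the U7 snRNP, which cleaves histone pre-mRNAs. LSM10 had 11, 16 and 4 counts in the controls and 13, 69 and 13 in sgN6AMT1, at a log2 change of -0.45 ± 0.52 (SE, adjusted p = 0.631). LSM11, with 4, 10 and 6 counts in sgCtrl against 11, 31 and 34, did not pass the filter and had a log2 fold change of -0.04 without it (adjusted p = 0.970). With these counts no difference was detectable for either. LSMEM1 and LSMEM2 share the letters of the prefix but encode membrane proteins without an Lsm fold. LSMEM1 had 1 count in sgCtrl replicate 2 and 1 in sgN6AMT1 replicate 2, and LSMEM2 had 0 in the 6 libraries.

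**Figure D3:**
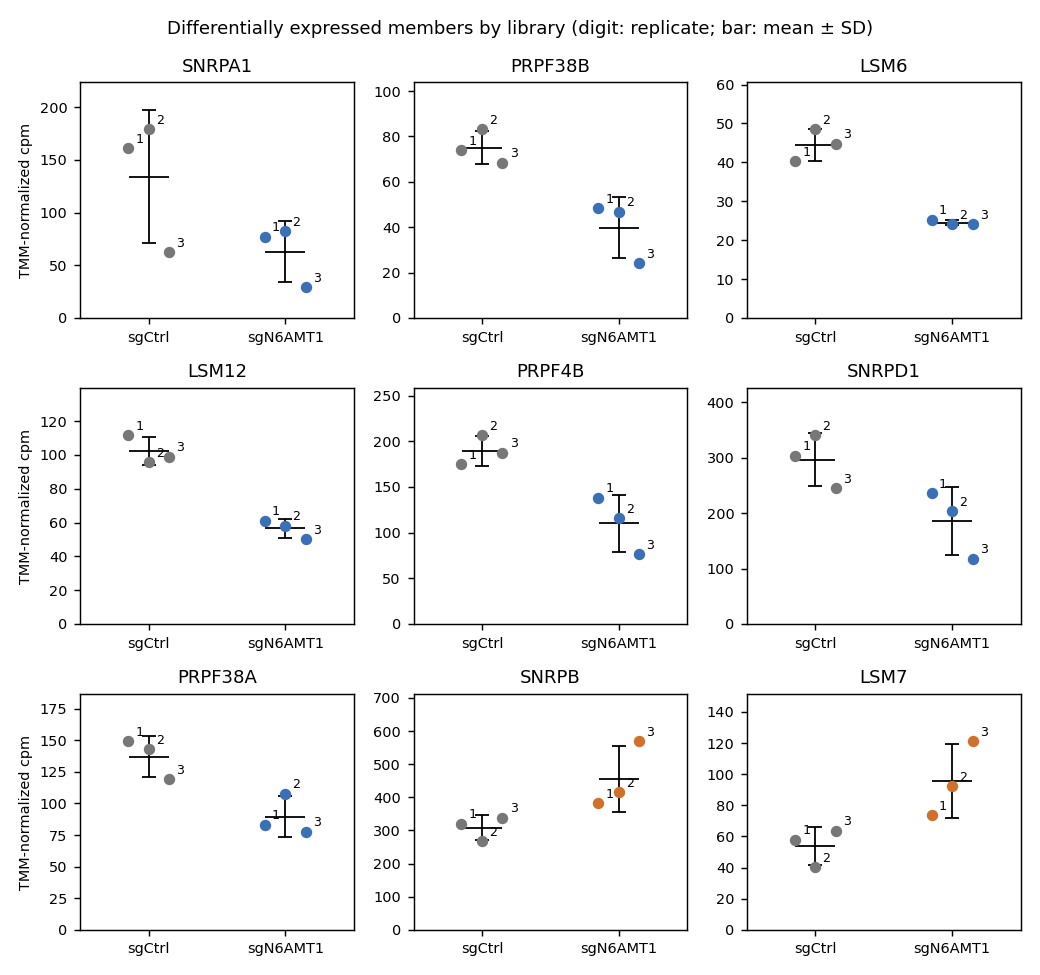
TMM-normalized cpm (y axis, from 0) of the 9 differentially expressed snRNP genes in each library, with the replicate number beside each point and the mean ± SD (n = 3) of each condition as bars. SNRPA1 is the gene whose conditions overlap, and sgN6AMT1 replicate 3 is the most extreme sgN6AMT1 library in 8 of the 9 panels.

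The promoter windows of the 5 called genes with 1 listed window each are shown to set the genes that rose (LSM7 and SNRPB) beside those that fell (SNRPA1, PRPF38A and PRPF38B). The sequences are from RefSeq on GRCh38.p14 and run 5′ to 3′ on the gene's strand from 250 bases before to 50 after the transcription start. They are chr19:2328537-2328836 (minus strand), chr20:2470740-2471039 (minus), chr15:101295199-101295498 (minus), chr1:52404352-52404651 (plus) and chr1:108692060-108692359 (plus), in the order given. Capitals mark matches, on either strand, to short motifs known from housekeeping promoters: CCGGAAG (ETS factors), GCATGCGC (NRF1), AAGATGG (YY1), CACGTG (E-box) and CCAAT (the CCAAT box). Where matches overlap, as a pair of NRF1 matches does in LSM7, they appear as 1 longer run.
LSM7: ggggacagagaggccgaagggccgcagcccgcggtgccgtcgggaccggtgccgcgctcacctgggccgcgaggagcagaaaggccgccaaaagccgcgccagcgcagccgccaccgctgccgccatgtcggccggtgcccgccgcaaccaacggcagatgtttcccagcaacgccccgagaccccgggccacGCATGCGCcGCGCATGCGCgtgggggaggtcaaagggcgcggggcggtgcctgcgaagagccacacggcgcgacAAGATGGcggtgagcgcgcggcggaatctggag
SNRPB: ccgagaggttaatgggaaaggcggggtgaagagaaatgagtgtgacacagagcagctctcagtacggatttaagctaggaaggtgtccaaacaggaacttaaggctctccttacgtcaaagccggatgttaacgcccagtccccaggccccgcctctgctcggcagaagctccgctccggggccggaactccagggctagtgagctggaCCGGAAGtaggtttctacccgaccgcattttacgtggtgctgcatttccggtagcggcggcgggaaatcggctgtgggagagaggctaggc
SNRPA1: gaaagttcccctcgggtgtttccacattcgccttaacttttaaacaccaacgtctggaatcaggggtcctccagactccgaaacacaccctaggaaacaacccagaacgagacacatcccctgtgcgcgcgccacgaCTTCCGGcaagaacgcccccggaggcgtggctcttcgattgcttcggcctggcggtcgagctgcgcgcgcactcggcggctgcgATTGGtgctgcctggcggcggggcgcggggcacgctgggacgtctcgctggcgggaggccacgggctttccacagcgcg
PRPF38A: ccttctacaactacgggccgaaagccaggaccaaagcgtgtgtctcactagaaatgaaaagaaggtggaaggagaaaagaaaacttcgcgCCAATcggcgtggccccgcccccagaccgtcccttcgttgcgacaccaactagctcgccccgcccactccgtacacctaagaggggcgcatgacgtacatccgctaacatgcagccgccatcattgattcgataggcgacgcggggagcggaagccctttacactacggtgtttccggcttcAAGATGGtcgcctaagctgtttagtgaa
PRPF38B: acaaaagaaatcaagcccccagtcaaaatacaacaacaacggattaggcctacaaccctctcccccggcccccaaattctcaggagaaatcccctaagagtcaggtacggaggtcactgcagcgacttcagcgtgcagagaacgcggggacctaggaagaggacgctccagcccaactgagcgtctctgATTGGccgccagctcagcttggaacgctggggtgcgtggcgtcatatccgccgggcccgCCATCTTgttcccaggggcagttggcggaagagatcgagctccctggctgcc

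The LSM7 window held 3 NRF1 matches and 1 YY1 match, and its GC content was 74.3%. An ETS match was found in the windows of SNRPB, which rose, and SNRPA1, which fell. The PRPF38A and PRPF38B windows each held 1 YY1 match and 1 CCAAT box. Windows on chromosome 8 were not analysed here. On the other chromosomes, windows were listed for 39 of the snRNP genes, 51 windows in all. Of these, 39.2% held the ETS motif, against 10.3% of the 35116 windows analysed, which include genes not expressed in these cells. The YY1 motif was in 15.7%, against 5.84%. The NRF1 motif was in 5.88% (all windows analysed 3.05%), the E-box in 5.88% (7.26%) and the CCAAT box in 35.3% (34.6%). No comparison was made with expressed genes alone. These are matches of letters, several windows can belong to 1 gene, and no binding was measured.

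Fold changes in these libraries ran with base composition. Over the 8176 tested genes with a transcript in GENCODE v44, the median log2 fold change was -0.14 in the lowest of 5 equal bins of GC content and 0.18 in the highest. The 43 snRNP genes shared this trend loosely (Pearson r = 0.27 and Spearman rho = 0.21 across genes, which share libraries and are not replicates). The 7 called genes that fell had transcripts of 37.0% to 46.2% GC, whereas SNRPB and LSM7 had 58.2% and 58.7%. In these bins, from low to high GC content, 2 of 11, 3 of 6, 2 of 10, 0 of 10 and 0 of 6 snRNP genes were called lower, where 5.75%, 5.26%, 5.57%, 4.95% and 2.32% of all genes were. Called higher were 0, 0, 0, 0 and 2 snRNP genes, where the share of all genes climbed with GC content from 1.53% through 2.69%, 5.99% and 7.46% to 7.77%.

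When trends with GC content and transcript length were removed from each library, 11 snRNP genes were called, 10 lower and 1 higher, where 11.3% of all genes were, 6.51% lower and 4.81% higher. LSM7 kept its call (log2 fold change 0.69, adjusted p = 0.0278). SNRPB did not (0.34, adjusted p = 0.108), and PRPF38A was also lost (-0.48, adjusted p = 0.0659). The other 6 calls were kept, and SF3A1, SF3A2, SNRPG and LSM14B passed in addition, with log2 fold changes of -0.64, -0.83, -0.45 and -0.91. Without the correction the medians of the snRNP genes in these bins were -0.16, -0.45, -0.13, -0.10 and -0.22, beside -0.14, -0.07, 0.02, 0.11 and 0.18 for all genes.

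**Figure D4:**
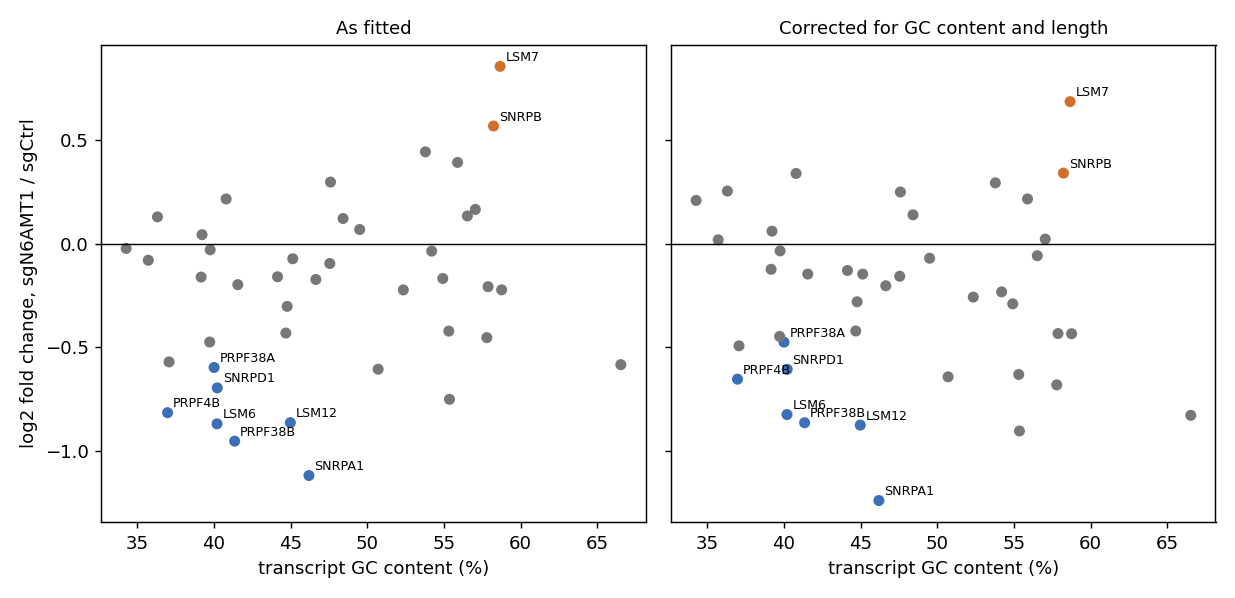
Log2 fold change (y axis) against GC content of the canonical transcript in percent (x axis) for the same snRNP genes, as fitted (left) and after correction of each library for GC content and length (right); blue and orange mark genes called lower and higher in the uncorrected fit. SNRPB moved from 0.57 to 0.34 and SNRPA1 from -1.12 to -1.24.

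Other components of the spliceosome were followed with a list of 65 genes outside the prefixes, 62 of which were tested. Of these, 10 were differentially expressed, 7 lower and 3 higher (16.1% called, against 9.85% of all genes), and the median log2 fold change was -0.06. Without sgN6AMT1 replicate 3 this median was 0.02, with 34 positive and 29 negative genes. After correction for GC content and length the 10 calls were 9 lower and 1 higher, ZMAT5 and RBM42 no longer passing (adjusted p = 0.0629 and 0.165), and after thinning the calls were 5 lower and 1 higher (9.68% called, against 8.21% of all genes). U2AF1, the subunit of U2AF that reads the 3′ splice site, had 249, 197 and 160.3 TMM-normalized cpm in sgCtrl and 88.5, 93.3 and 44.7 in sgN6AMT1. All sgN6AMT1 libraries were below the controls, at a log2 change of -1.44 ± 0.24 (SE, adjusted p = 0.00121). The annotation holds a near-identical copy, U2AF1L5, with 181, 159 and 127 counts in the controls and 82, 464 and 161 in sgN6AMT1, so that the split of reads between the copies is uncertain, and the copy also fell (adjusted p = 0.00126).

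RBM17, a factor of 3′ splice site choice, had 207, 242 and 174 TMM-normalized cpm in sgCtrl and 121, 123 and 84.1 in sgN6AMT1, again without overlap, at a log2 change of -0.94 ± 0.18 (SE, adjusted p = 0.00414). U2AF1 and RBM17 were called in each of the 15 alternative fits. SF1, the branch point binding protein, and PHF5A, a further subunit of SF3B, fell with log2 fold changes of -0.83 and -0.83. DDX42 and SNW1 (-0.74 and -0.63) and BUD31 (-0.60) fell as well, while ZMAT5, a protein of the minor U11/U12 snRNP, the helicase DHX8, which releases spliced mRNA, and RBM42 rose (1.59, 0.67 and 0.61). DESeq2 called none of the 3 that rose (adjusted p = 0.0829, 0.0967 and 0.0746). In the 6 fits that each omit 1 library, SF1 and DDX42 were called in 3 each, PHF5A, BUD31, ZMAT5 and RBM42 in 2 each, and SNW1 and DHX8 in 1 each. Over the whole list, 6 genes were higher and 13 lower without overlap between the conditions (9.68% and 21.0%, all genes 15.1% and 14.1%). ZMAT5 rested on low levels, 2.69, 6.92 and 4.72 in sgCtrl and 17.9, 12 and 16.2 in sgN6AMT1. The count of 10 was 2 without sgCtrl replicate 2, 3 without sgCtrl replicate 1, and 4 without sgN6AMT1 replicate 2 or 3. The shares called in these fits (3.17%, 4.76%, 6.35% and 6.35%) were near those of all genes (2.54%, 3.50%, 5.85% and 6.37%).

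The factors that assemble Sm rings on snRNAs were read with a list of 17 genes, 16 of them tested. None was called by edgeR as fitted here or by DESeq2, although some other edgeR fits called 1 or 2 of them. An unadjusted p under 0.05 was found for 3 of the 16 (all genes 26.2%). On the negative side lay 12 of the 16 (75.0%, all genes 49.2%), the median of the list being -0.15. SMN2 and SMN1, near-identical copies between which reads may have been split, had log2 fold changes of -0.58 and -0.48 (adjusted p = 0.0658 and 0.0983), and each was lower in the 3 sgN6AMT1 libraries than in every control. Both are counted as separate genes in the shares above, also among those with an unadjusted p under 0.05, although their counts may not be independent. PRMT5 and WDR77, the methyltransferase complex that modifies Sm tails, had 0.15 and 0.28, and neither passed. Of 9 tested genes of mRNA decapping and 5′ to 3′ decay, the partners of the LSM1 ring, DDX6 alone was called (11.1%, near the 9.85% of all genes), its TMM-normalized cpm being 144 ± 17.5 in sgCtrl against 88.5 ± 8.85 (both SD, n = 3), with a log2 change of -0.72 ± 0.17 (SE, adjusted p = 0.0133), and missing the threshold without sgCtrl replicate 2 (0.101). Of these 9 genes 7 were negative, and their median was -0.23. The 8 tested genes of histone 3′ end processing, the partners of U7, included 0 called by edgeR or DESeq2 and 0 with an unadjusted p under 0.05 (all genes 26.2%).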

How the data were processed

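RNA-Seq was made from 3 sgCtrl and 3 sgN6AMT1 libraries of K562 cells. Per the study's methods and processing notes, the authors trimmed reads with cutadapt (minimal length 15, quality 2), aligned them with HISAT2 to GRCh38 (Ensembl release 84) and deposited whole-number counts per gene. The counting tool, the use of strand and the treatment of multi-mapping reads are not given in the sources used here. In the table, 50 symbols that a spreadsheet had rewritten as currency amounts, LSM genes among them, were restored. LSM4, DDX41, CASP8AP2 and CD79A were not analysed here. The single values of 1 PRPF gene and 1 lymphoid marker are not reported here; both stay in the counts and sums.

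Counts were filtered with filterByExpr, scaled by TMM and tested across all 8324 remaining genes with the quasi-likelihood test of edgeR 4.0.16 (R 4.3.3), two-sided, with Benjamini-Hochberg adjustment over all of them and a threshold of 0.05. The common biological coefficient of variation was 0.16. Standard errors are the log2 fold change over the square root of F. Values per library are TMM-normalized cpm. Floors (3 counts) cover counting error only. The script was tested on simulated data. Alternatives were DESeq2 1.42.0, other scalings and filters, thinning of the deep libraries to 866524 counts, a replicate block, a correction of each library for GC content and length (splines with 5 degrees of freedom) and leaving out each library.

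Gene positions are those of GENCODE v44 on GRCh38, matched by symbol for 18872 of 19330 genes, 868 of them through older symbols, and gene bounds may differ from release 84. GC content and length were known for 98.2% of the genes tested.

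The members and all lists were chosen with earlier results of these data known. Named genes were N6AMT1, each called gene, the highest and lowest of each prefix family, SF3B1, PRPF8, fixed paralog pairs and the members that failed the filter; others named were chosen after their values were seen. With 3 libraries per condition an exact permutation test cannot go below 0.1, so none was used.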

Additional observations from a re-analysis of the deposited data

How the results depend on the processing

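All 9 called snRNP genes kept their direction in the 15 alternatives. The replicate block with the GC and length correction called 1383 genes (16.9%) and 17 snRNP genes, and moved the SNRP median to -0.43 (-0.42 with the correction alone, -0.30 as reported). Of the other spliceosome genes, 6 were called by DESeq2 (6.70% of all genes) and 6 after thinning (8.21%), against 10 (9.85%). Assembly factors, 0 as reported, had 1 called without a filter (8.66% of all genes), 1 with the replicate block (14.4%), 2 with the GC and length correction (11.3%) and 2 with both (16.9%). The PRPF median was -0.10 without a filter and -0.10 after thinning, against -0.16. The log2 fold change of LSM8 was 0.00 with at least 10 counts in every library, 0.21 with the GC and length correction and 0.20 with the block in addition, against -0.02. The causes were not tested.

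With single libraries left out, calls ranged from 220 to 951 over all genes, 1 to 10 for snRNP genes, 2 to 12 for other spliceosome genes and 0 to 1 for assembly factors. Medians ranged from -0.37 to -0.24 for SNRP, -0.21 to -0.07 for SF3A and SF3B, -0.19 to -0.08 for PRPF and -0.27 to 0.01 for LSM. LSM8 ranged from -0.20 to 0.16, LSM1 from -0.18 to 0.09, LSM10 from -0.92 to 0.04 and LSM14A from -0.33 to 0.00, each turning or reaching 0 without sgN6AMT1 replicate 3 (LSM8 0.07 there, and 0.16 without sgCtrl replicate 3).

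The deviations of same-numbered libraries from the group means correlated at -0.000522, 0.0827 and 0.190 for replicates 1 to 3. Pairs with different numbers gave -0.194 to 0.140. These values do not settle whether same-numbered libraries share more than a number. The replicate block called 1195 genes (14.4%) and 12 snRNP genes, adding SF3A1, SNRPD2 and SNRPG.

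Depth limits the low genes. The sgCtrl libraries and sgN6AMT1 replicate 1 held 742470 to 959319 counts, so that 3 counts there correspond to 3.13 to 4.04 cpm, against 0.543 and 0.738 cpm in sgN6AMT1 replicates 2 and 3.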
